A study of Mus musculus with 4 samples.

Results

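Natural killer (NK) cells and type 1 innate lymphoid cells (ILC1) were described as 105 cells among 6237 kept cells of 4 mouse liver libraries. They were chosen on raw counts of unique molecular identifiers (UMIs, 1 per captured RNA molecule) after barcodes with fewer than 200 genes, or with over 10% of their UMIs from mitochondrial genes, were left out. A member had fewer than 5 UMIs of the macrophage genes C1qa, C1qb and C1qc per 1000, no UMI of the B cell gene Cd79a or of the plasmacytoid dendritic cell gene Siglech, and at least 1 UMI of Ncr1, the gene of the receptor NKp46. A cell with no Ncr1 UMI was also taken when it had at least 1 UMI of Klrb1c, the gene of NK1.1, and at most 1 UMI of Cd3d, Cd3e and Cd3g together. Control library 1 held 5 members and control library 2 held 16, while NASH 1 held 40 and NASH 2 held 44.

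NK cells circulate, kill target cells with perforin and granzymes held in granules, and read MHC class I on other cells through Ly49 and related lectin-like receptors. ILC1 stay in the tissue, share NK1.1 and NKp46 with NK cells, and are known in mouse liver for the chemokine receptor Cxcr6, the integrin subunit CD49a (Itga1) and the death ligand TRAIL (Tnfsf10), whereas liver NK cells carry the transcription factor Eomes and the integrin subunit CD49b (Itga2). Both release chemokines, among them Xcl1, which attracts cross-presenting dendritic cells, and Ccl5.

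The cells came from livers of C57BL/6J mice, 2 libraries on a control diet and 2 on the Amylin diet that is used as a model of nonalcoholic steatohepatitis (NASH). Livers were digested with the transcription inhibitor flavopiridol present, and non-parenchymal cells positive for the leukocyte antigen CD45 and negative for the endothelial antigen CD146 were sorted before droplet capture with 10x Genomics reagents. Neither sort marker separates NK cells or ILC1 from other leukocytes. No label says that the libraries are separate mice, so p-values measure the spread between these libraries, which may be technical.

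The libraries differed in depth. Total UMIs were 5513953 and 5684819 for control and 13749657 and 15619962 for NASH, and the low-gene and mitochondrial limits removed 14.8% and 20.4% of control barcodes against 2.87% and 2.38% of NASH barcodes. The members were closer in depth, with median UMIs of 2943, 2234, 3683.5 and 3677. Their summed UMIs were 16981 and 40253 in control and 205041 and 188657 in NASH, so each control value rests on few cells. Between 2 and 8 barcodes were shared by a pair of libraries, and none of them was a member.

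Sequences are shown for Gzma and Xcl1, the marker genes outside the rule whose detection differed most clearly between the libraries below. Gzma encodes granzyme A, a protease of cytotoxic granules, and lies on the minus strand of chromosome 13 at 113093825 to 113100981. Xcl1 lies on the minus strand of chromosome 1 at 164931644 to 164935527 (both GENCODE, GRCm38). The 250 bases before each start were taken from RefSeq (GRCm38.p6), 5′ to 3′ on the gene's strand, at chr13:113100982-113101231 and chr1:164935523-164935772. Capitals mark the letters of 2 motifs on either strand, the T-box core GGTGTGA, bound by factors such as T-bet and Eomes, and the RUNX core TGTGGT. On the opposite strand the T-box core is printed as TCACACC and the RUNX core is printed as ACCACA.
Gzma: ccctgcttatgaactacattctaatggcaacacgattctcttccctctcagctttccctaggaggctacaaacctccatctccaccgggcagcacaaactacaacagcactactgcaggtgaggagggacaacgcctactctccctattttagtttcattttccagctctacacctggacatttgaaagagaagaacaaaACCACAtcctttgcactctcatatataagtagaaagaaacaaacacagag
Xcl1: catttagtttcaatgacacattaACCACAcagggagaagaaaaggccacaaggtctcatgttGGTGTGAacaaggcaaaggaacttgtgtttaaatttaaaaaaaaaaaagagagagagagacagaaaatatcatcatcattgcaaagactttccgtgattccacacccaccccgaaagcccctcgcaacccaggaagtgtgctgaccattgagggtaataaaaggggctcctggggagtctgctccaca
The Gzma window held 1 RUNX core, which begins 50 bases before the start, and no T-box core. The Xcl1 window held 1 RUNX core at 227 bases and 1 T-box core at 188 bases before the start. Among 32851 windows of the same length, 14.0% held the RUNX core and 3.33% the T-box core, and the motifs do not overlap each other in the windows shown. A match of letters does not show that a factor binds there.

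The label was checked in each cell against 15 NK and ILC1 markers that the rule did not use, namely Gzma, Xcl1, Eomes, Itga2, Klra8, Prf1, Gzmb, Klre1, Klrd1, Klrk1, Nkg7, Cxcr6, Itga1, Tnfsf10 and Il7r. The median member had 6 of the 15, with library medians of 6, 6.5, 6 and 7. Nkg7, a granule membrane protein, was detected in 4 of 5, 16 of 16, 36 of 40 and 40 of 44 members, and Klrd1, the CD94 receptor chain, in 4 of 5, 14 of 16, 34 of 40 and 39 of 44. No UMI was found in the 105 members for the T cell genes Cd4, Cd8a and Cd5, the ILC3 genes Il22, Il23r and Il17a or the ILC2 genes Il1rl1, Areg and Il13, which were named after their values were seen. A count of 0 allows up to 2.86% of members with a UMI and sets no limit on cells that express a gene below capture. Other genes of those lists were found. Of 15 T cell genes other than those of Cd3, 13, 10, 8 and 6 were at 0, of 12 ILC2 genes 11, 10, 7 and 7, and of 10 ILC3 genes 9, 7, 7 and 8. A UMI of Cd3d, Cd3e or Cd3g was present in 1, 2, 5 and 4 members.

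A minority of members went against the label. Fewer than 3 of the 15 markers were detected in 8 members. In 12 members, 8 of NASH 1 and 4 of NASH 2, a list of MHC class II genes made up at least 1% of UMIs, from 1.66% to 12.4%, against at most 0.865% in every other member. These 12 cells had a median of 9055 UMIs, against 3399 in the other members, and 5 of them had fewer than 3 markers. The other 7 carried both sets of genes, for example a NASH 2 cell with 36 Xcl1 UMIs and 3 Ncr1 UMIs in which the MHC class II list made up 3.99% of UMIs. In 1 member of control 1, hepatocyte genes made up 26.7% of UMIs and none of the 15 markers was detected. Leaving out the cells rich in either list and those with fewer than 3 markers gives 90 marker-checked members (4, 16, 32 and 38), a choice made after seeing the data. No member was among the cells with the highest doublet scores, cut at 0.8% of a library's kept cells per 1000 kept. So small a cut cannot show whether the members above are doublets.

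**Figure D1:**
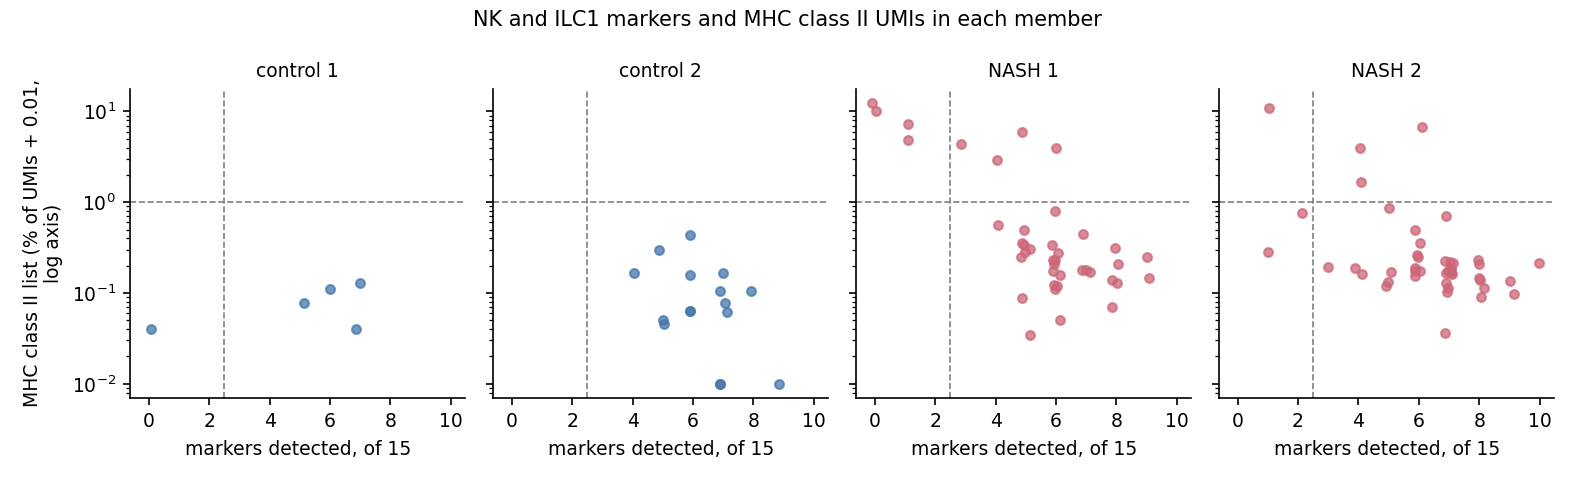
Each point is 1 member, by the number of the 15 NK and ILC1 markers detected (x axis, points spread sideways) and the percent of its UMIs from the MHC class II list (y axis, log scale, 0.01 added), with dashed lines at 1% and below 3 markers. All 12 members above the 1% line are in NASH 1 (8) and NASH 2 (4).

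Summed over members, the MHC class II list stood at 5.89 and 11.9 UMIs per 10000 in control and 255 and 107 in NASH, with 8 and 4 of its 13 genes at 0 in control and 0 and 2 in NASH. The hepatocyte list stood at 1068 in control 1 and at 4.72, 3.90 and 1.80 in the other libraries, and the endothelial list at 35.5 in control 2 against 3.53, 6.63 and 2.92 elsewhere. The macrophage list without the C1q genes stood at 88.3 and 32.3 in control and 111 and 36.8 in NASH. The part of these genes in the results below was not tested except where a value without those cells is given.

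The rule's own values are a description. Ncr1 was detected in 4, 11, 34 and 42 members, and 1, 5, 6 and 2 members entered through Klrb1c alone. Ncr1 levels were 4.71, 5.47, 5.46 and 6.15 UMIs per 10000, and Klrb1c levels 3.53, 6.46, 4.97 and 4.88. Of 177 cells that met every other condition, 105 lay inside the C1q limit and 72 outside. By library, those outside were 3 of 8 and 2 of 18 in control, and 31 of 71 and 36 of 80 in NASH. Their part in the diet comparisons below was not tested, apart from a limit of 10 per 1000 UMIs tried for the member share. The highest C1q value inside was 3.46 per 1000 and the lowest outside was 6.14. Among Ncr1-negative, Klrb1c-positive cells, 14 had no Cd3 UMI and were taken, none had exactly 1, 1 had 2, and 21 had 3 or more.

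Members were a larger share of kept cells in both NASH libraries than in either control library. They made up 0.379% (exact Clopper-Pearson 95% interval 0.123 to 0.881) and 1.11% (0.638 to 1.80) of kept cells in control, and 2.51% (1.80 to 3.41) and 2.33% (1.70 to 3.12) in NASH. The intervals cover counting error only. The control mean was 0.746 ± 0.520% and the NASH mean 2.42 ± 0.128% (SD, n = 2 each), a log2 ratio of 1.70. The groups did not overlap, and the exact two-sided permutation test gave p = 0.333, the smallest that 2 against 2 libraries allow. Among kept cells that are not rich in C1q the shares were 1.95% and 3.15% in control and 6.43% and 7.21% in NASH.

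The difference in share depended on the cell filter. With at least 500 genes and at most 5% mitochondrial UMIs, 5 of 380 and 15 of 544 control cells were members (1.32% and 2.76%), against 38 of 1312 and 43 of 1622 NASH cells (2.90% and 2.65%). The groups then overlapped, with a log2 ratio of 0.45 (exact permutation p = 0.667). This filter left out 1 control 2 member and no control 1 member, while it removed most other control cells. As a share of members and T cells together, the members were 20.8% and 32.0% in control and 38.5% and 43.1% in NASH. The T cells, called T comparators below, met the same C1q, Cd79a and Siglech limits, had no Ncr1 UMI and at least 2 UMIs of the Cd3 genes, and numbered 19, 34, 64 and 58.

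**Figure D2:**
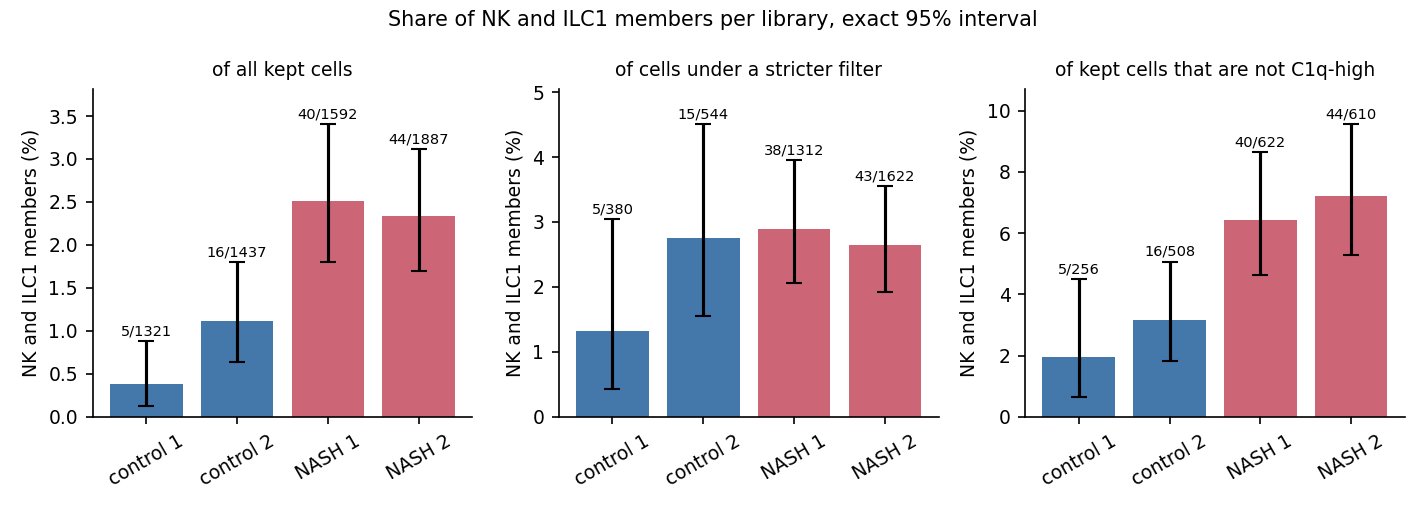
Bars give the members as a percent of kept cells, of kept cells under the stricter filter and of kept cells that are not C1q-high in each library, with exact 95% intervals and the numbers of cells. The NASH bars lie above both control bars among kept cells and among cells not rich in C1q, but not under the stricter filter, where control 2 (2.76%) lies between NASH 2 (2.65%) and NASH 1 (2.90%).

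Members were sorted by the genes that separate ILC1 from NK cells. An ILC1-gated member had a UMI of Cxcr6, Itga1 or Tnfsf10, none of Eomes or Itga2, and no Cd3 UMI, and an NK-gated member had the reverse. There were 0, 4, 19 and 12 ILC1-gated and 0, 1, 0 and 6 NK-gated members. Among members with no Cd3 UMI, none had genes of both kinds, and 4, 9, 16 and 22 had neither. The 1, 2, 5 and 4 members with a Cd3 UMI were not gated. ILC1-gated cells were thus 4 of 5 gated members in control 2, 19 of 19 in NASH 1 and 12 of 18 in NASH 2, and control 1 had no gated cell. This share was not tested between diets, since control has 1 library with a value, and the 2 NASH libraries (100% and 66.7%) lay farther apart than control 2 (80.0%) from their mean of 83.3%. As a share of all members, ILC1-gated cells were 0% and 25.0% in control and 47.5% and 27.3% in NASH, without overlap (exact permutation p = 0.333, the smallest possible), and NK-gated cells were 0% and 6.25% against 0% and 13.6% (exact permutation p = 1.0). The ILC1-gated separation did not hold in 2 other settings. With rule and gates read after thinning cells to 1000 UMIs, the counts were 0 of 3, 2 of 11, 7 of 28 and 5 of 30. Among Ncr1-positive members without Cd3 UMIs they were 0 of 3, 3 of 9, 18 of 29 and 12 of 38. In both settings control 2 lay above NASH 2.

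The gates lean on few molecules. Cxcr6 was detected in 0 of 5, 4 of 16, 16 of 40 and 16 of 44 members, Tnfsf10 in 0, 2, 12 and 5, and Itga1 in 0, 1, 2 and 1. Eomes was detected in 0, 1, 0 and 5 members and Itga2 in 0, 0, 0 and 3, where a count of 0 allows up to 60%, 18.8% and 7.5% of members with a UMI in control 1, control 2 and NASH 1 and sets no limit on expression below capture. Cxcr6 was no marker of the members against T cells, since 10 of 19, 9 of 34, 34 of 64 and 18 of 58 T comparators also had a UMI.

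Over all libraries, 35 members were ILC1-gated and 7 NK-gated. No library had 10 cells in each gate, so genes were not tested between the gates, and the following values are a description. Gzma was detected in 5 of 7 NK-gated and 2 of 35 ILC1-gated members, the Ly49 gene Klra8 in 3 of 7 and 0 of 35, and Klra4 in 4 of 7 and 0 of 35. Tmem176b, a membrane protein of ILC1 and myeloid cells, was detected in 25 of 35 ILC1-gated and in no NK-gated member. Cd7 was detected in 32 of 35 and 5 of 7, Cd160 in 30 of 35 and 4 of 7, and Xcl1 in 33 of 35 and 5 of 7. Median UMIs were 3438 in ILC1-gated and 4298 in NK-gated members.

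Gzma and Xcl1 pointed in opposite directions across the diets. Gzma was detected in 4 of 5 and 11 of 16 control members (80.0% and 68.8%), and in 1 of 40 and 14 of 44 NASH members (2.5% and 31.8%). Xcl1 was detected in 1 of 5 and 7 of 16 control members (20.0% and 43.8%), and in 35 of 40 and 36 of 44 NASH members (87.5% and 81.8%). The groups overlapped for neither gene, and each exact permutation test gave p = 0.333, again the smallest possible. The mean shares differed by −57.2 percentage points for Gzma and 52.8 for Xcl1, NASH minus control.

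Detection depends on depth, so every member was also thinned to 1000 UMIs, which left out none. Gzma was then detected in 2 of 5 and 9 of 16 control members and in 1 of 40 and 12 of 44 NASH members, and Xcl1 in 1 of 5, 4 of 16, 27 of 40 and 28 of 44. The libraries still did not overlap by diet. Both genes were also read in cells rich in C1q, at median UMIs of 3285, 2880, 8840.5 and 8247. Gzma had a UMI in 0.845%, 1.29%, 2.37% and 1.41% of them, and Xcl1 in 0.563%, 0.215%, 3.61% and 2.58%. These cells include 3, 2, 31 and 36 that met every other condition of the rule. Their shares are thus no clean measure of free RNA. The shares of members lay above those of C1q-high cells. For Gzma in NASH 1 they were close, at 2.5% of members against 2.37%, and that member share is 1 cell with many Gzma UMIs.

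**Figure D3:**
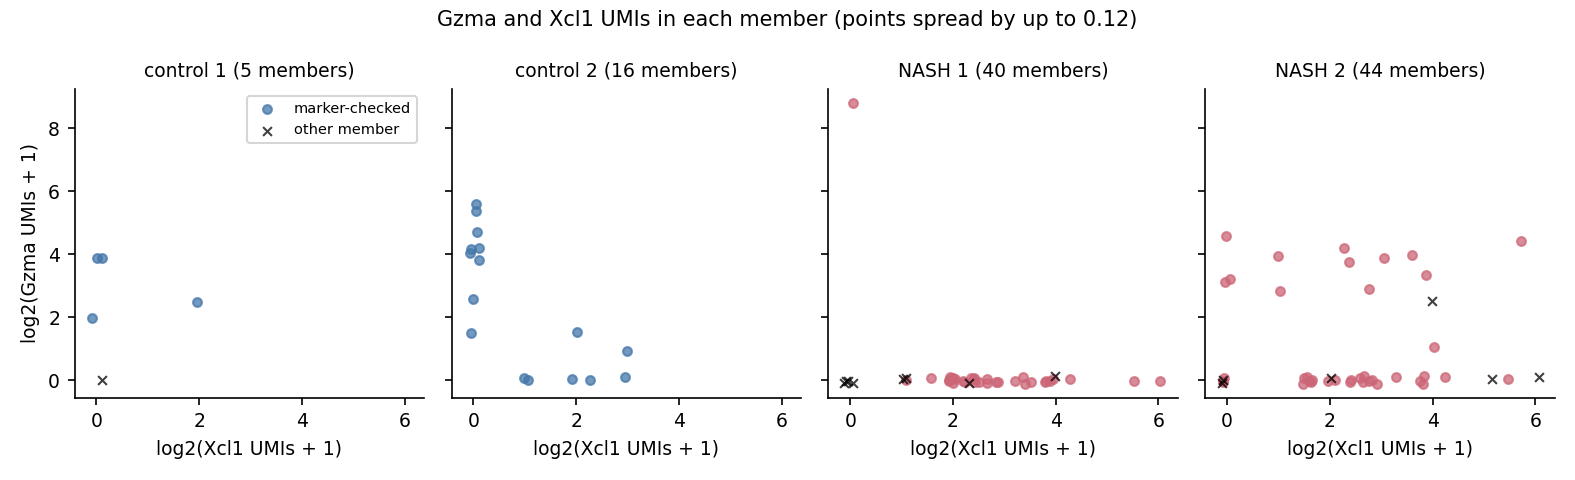
Each point is 1 member, with log2(Xcl1 UMIs + 1) on the x axis and log2(Gzma UMIs + 1) on the y axis; filled circles are marker-checked members and crosses the others. Most control members lie along the Gzma axis and most NASH members along the Xcl1 axis, with 11 NASH 2 members and no NASH 1 member carrying both.

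Within cells the pair of genes rarely met in control. Of the 21 control members, 3 had both, 12 had Gzma without Xcl1, 5 had Xcl1 without Gzma and 1 had neither. NASH 1 held no cell with both and 35 with Xcl1 alone, and NASH 2 held 11 with both, 3 with Gzma alone and 25 with Xcl1 alone. The single Gzma-positive member of NASH 1 held all 435 Gzma UMIs of that library. It also had UMIs of the proliferation genes Mki67 (2) and Top2a (3) and 15 UMIs of Ncr1. In the other libraries no member held more than 14, 51 and 23 Gzma UMIs.

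Because of that cell, the summed level of Gzma told less than its detection. Gzma stood at 20.6 and 46.0 UMIs per 10000 in control and at 21.2 and 8.48 in NASH, so the groups overlapped. The log2 fold change, NASH over control, was −1.23 (SE 0.58, adjusted p = 0.453). After thinning, in which that cell weighs as much as any other, it was −2.33 (adjusted p = 0.00427). It did not pass in the other 14 alternatives, which gave −0.29 to −2.12, with −0.92 (adjusted p = 0.782) in marker-checked members. Xcl1 stood at 1.77 and 6.46 UMIs per 10000 in control and at 15.2 and 21.3 in NASH, without overlap. Its means were 4.11 ± 3.32 and 18.2 ± 4.30 (SD, n = 2 each) and its log2 fold change 1.92 (SE 0.40), at an adjusted p of 0.0996 that misses the threshold of 0.05. It lay between 1.16 and 3.52 under the alternatives tried. The marker check counts Gzma and Xcl1 among its markers, so it gives no test of either gene.

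Other granule genes did not share one pattern. Gzmb was detected in 3 of 5, 13 of 16, 8 of 40 and 22 of 44 members, at 5.30, 5.71, 2.73 and 7.69 UMIs per 10000, so NASH 1 lay below and NASH 2 above both controls. The perforin gene Prf1 was detected in 0, 0, 3 and 5 members. Gzmc was held almost entirely by a few NASH cells, with 77 of the 134 UMIs of NASH 2 in 1 member. Nkg7 stood at 22.4 and 31.3 in control and at 16.7 and 23.2 in NASH, with a log2 fold change of −0.50 (SE 0.23, adjusted p = 0.395). Of 11 granule genes tested, none reached an unadjusted p under 0.05, against 13.2% of all 1525 genes tested, and their median log2 fold change was −0.15.

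**Figure D4:**
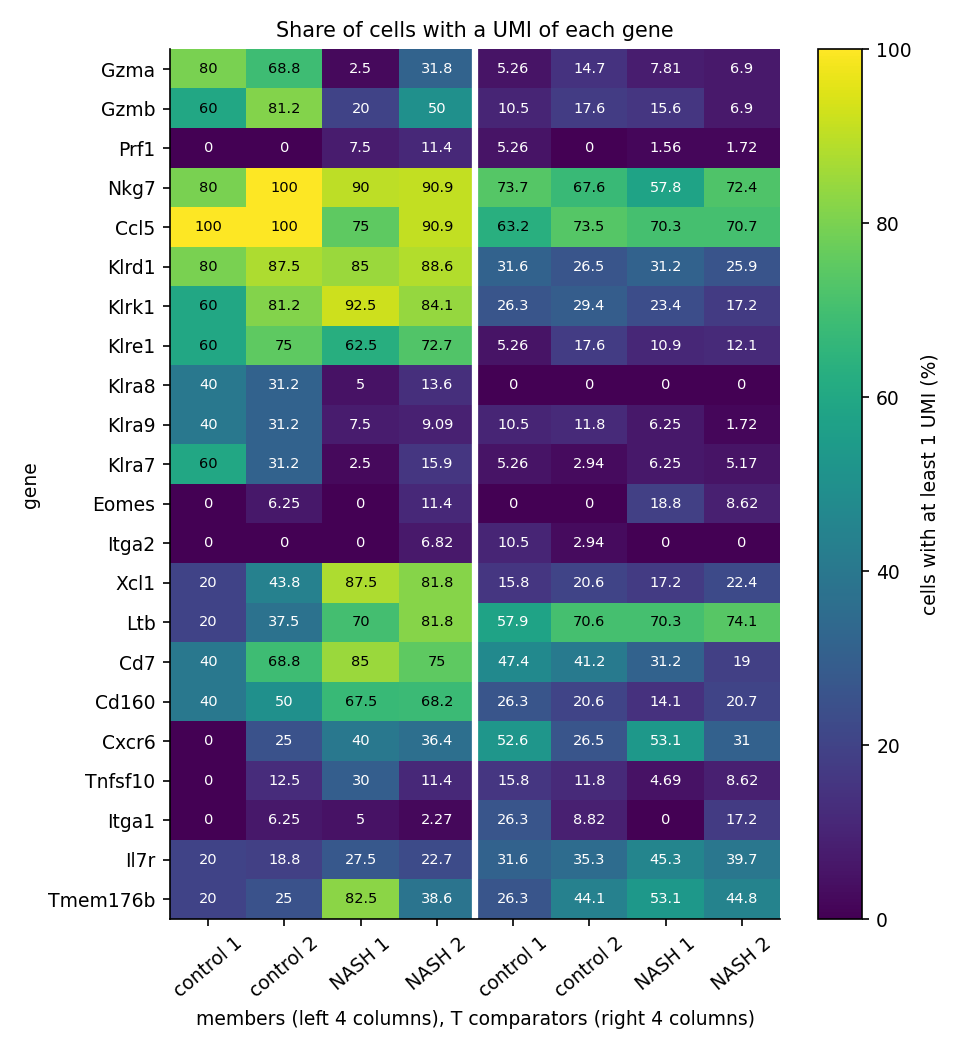
Each cell of the map gives the percent of members (left) or T comparators (right) with at least 1 UMI of a gene in 1 library, on a colour scale from 0 to 100%. Among members, Gzma and Klra8 are highest in control and Xcl1 and Ltb in NASH, while Klra8 is at 0 in all T comparators and Ltb is found in T comparators of both diets.

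The chemokine Ccl5 was the most abundant of these products. It was detected in 5 of 5, 16 of 16, 30 of 40 and 40 of 44 members, and stood at 115, 192, 54.2 and 106 UMIs per 10000. NASH 2 lay just below control 1, and the log2 fold change of −1.001 (SE 0.33) had an adjusted p of 0.293. It passed in 3 alternatives, among them marker-checked members (−0.93, adjusted p = 0.00329) and Ncr1-positive members without Cd3 UMIs (−1.40, adjusted p = 0.0249). It did not pass in the other 12, which gave −0.35 to −1.61. Ltb, the lymphotoxin beta gene, stood at 1.18 and 2.48 in control and 4.24 and 7.10 in NASH, with a log2 fold change of 1.43 (SE 0.45, adjusted p = 0.269). Ltb passed in 2 alternatives and not in 13, with 1.54 (adjusted p = 0.0353) in marker-checked members. The cytokine Ifng was found in 0, 1, 4 and 3 members.

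Klra8 and Klra9, 2 genes of the Ly49 receptor family, were detected in a larger share of control members, while Klra4 was not. Klra8, which encodes the activating receptor Ly49H in this strain, was detected in 2 of 5 and 5 of 16 control members and in 2 of 40 and 6 of 44 NASH members, at 6.48, 2.48, 0.39 and 1.43 UMIs per 10000. Klra9 was detected in 2 of 5, 5 of 16, 3 of 40 and 4 of 44, at 4.71, 2.48, 0.49 and 0.53. The groups overlapped for neither gene. The log2 fold changes were −2.16 for Klra8 (SE 0.72, adjusted p = 0.280) and −2.68 for Klra9 (SE 0.52, adjusted p = 0.0920). Klra7 stood at 2.94 and 2.73 UMIs per 10000 in control and at 0.34 and 2.54 in NASH, so NASH 2 lay close to the controls, with a log2 fold change of −1.03 (SE 0.99, adjusted p = 0.748). Klra4 was detected in 1 of 5, 3 of 16, 0 of 40 and 9 of 44 members, at 0.59 and 1.74 in control and 0 and 2.49 in NASH, so NASH 2 lay above both controls and NASH 1 below (log2 of −0.23, adjusted p = 0.993). Over all members, no Ly49 gene passed after adjustment. Among the alternatives, Klra9 passed in 4 and not in 10, and Klra8 passed in 1 and not in 14. In marker-checked members Klra9 stood at −2.37 (edgeR adjusted p = 0.0198). The Ly49 genes are near-identical copies of one another. How reads that fit several were counted is not given in the sources used here, so the split between them is uncertain.

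Ly49 genes and Gzma were found together. A Klra8 UMI was present in 11 of the 30 Gzma-positive members and in 4 of the 75 others, and no cell had both Klra8 and Cxcr6. Tnfsf10 was detected in none of the Gzma-positive members and in 19 of the 75 others, and Cxcr6 in 5 of 30 and 31 of 75. By library, Tmem176b was detected in 1 of 5, 4 of 16, 33 of 40 and 17 of 44 members. Cells pooled over libraries differ in source, and these are counts of cells without a test.

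Across all genes, no difference between the diets passed the threshold in the summed counts of the members. EdgeR's quasi-likelihood test called 0 of 1525 genes (0.0%), with 202 at an unadjusted p under 0.05 (13.2%), of which 116 were higher (7.61%) and 86 lower (5.64%) in NASH. DESeq2 on the same sums called 11. In marker-checked members edgeR called 25 of 1094 genes (2.29%), 11 higher (1.01%) and 14 lower (1.28%), and DESeq2 1. The marker check was chosen after seeing the data and uses genes that differ between the diets, so these counts are no independent test. At an unadjusted p under 0.05, 7.86% were higher and 8.5% lower there. The median log2 fold change of all tested genes was 0.07. On simulated counts with the members' depths, recovery was taken over the changed genes that passed the count filter. EdgeR recovered 42.5% of those changed 4-fold (log2 of 2), 34 of 80, with 105 changed in all. It recovered 97.2% of those changed by a log2 of 3, 70 of 72, with 95 changed in all. The simulation gave every gene the same spread and, apart from the changed genes, every library the same profile. These rates need not hold for the real sums. There, larger differences also missed the threshold, such as that of H2-Ab1 (log2 fold change 4.47, edgeR adjusted p = 0.0619).

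Gene lists were described by their counts against those backgrounds. Of the Ly49 list, 5 of 11 measured genes could be tested, all with lower estimates in NASH, 2 at an unadjusted p under 0.05, and a median log2 of −1.03. Of the ILC1 list, 12 genes were tested and 4 were higher at an unadjusted p under 0.05, namely Xcl1, Tmem176b, Ltb and Tmem176a, with a list median of 0.42. Of the conventional NK list, 10 were tested and 3 were lower, Klra9, Spn (the sialophorin CD43) and Klra8, with a median of −0.69. NK receptors had 3 of 14 lower (Klri2, Klre1 and Klrc2) and a median of 0.20, and NK signalling genes 2 of 10 lower (Hcst, the adaptor DAP10, and Fyn) and a median of −0.15. Oxidative phosphorylation genes had 0 of 29 and a median of −0.17. Over all members, none of these genes passed after adjustment. Markers of monocytes moved with the ILC1 list. All 7 tested genes of the monocyte list had higher estimates in NASH, 2 at an unadjusted p under 0.05, with a median of 1.11, and the list stood at 15.3 and 13.4 UMIs per 10000 in control and 86.1 and 20.7 in NASH. Lyz2, a lysozyme gene of monocytes and macrophages, had 0 and 7 UMIs in control members and 879 and 116 in NASH members, of which 283 and 52 were in marker-checked cells. Tmem176b, which is also a myeloid gene, had 127 and 60 UMIs in NASH members, of which 63 and 48 were in marker-checked cells. The part of monocyte RNA in these estimates was not tested.

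MHC class II genes were among those with higher estimates in NASH. H2-Ab1 stood at 0.59 and 1.74 UMIs per 10000 in control and at 42.8 and 19.2 in NASH, a log2 fold change of 4.47 (SE 0.60, adjusted p = 0.0619). Cd74, the invariant chain, stood at 1.77 and 3.48 in control and 114 and 44.3 in NASH, a log2 fold change of 4.76 (SE 0.67, adjusted p = 0.0990). All 8 tested genes of the list were higher at an unadjusted p under 0.05, with a median of 3.59. Of the 7300 UMIs of the list in the members, 90.2% lay in the 12 members rich in it. The marker check removed those 12 cells on this list, so it gives no test of these genes; in the cells left, the log2 difference was 1.37 for Cd74 and 0.88 for H2-Ab1.

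Genes lower in NASH members included the metallothioneins, which bind zinc and respond to glucocorticoids and metals. Mt1 stood at 10.0 and 3.73 UMIs per 10000 in control and 0.88 and 0.37 in NASH, with a log2 fold change of −3.30 (SE 0.62, adjusted p = 0.0840). All 17 Mt1 UMIs of control 1 lay in its hepatocyte-rich member, and without that cell the fold change was −2.07 (adjusted p = 0.247). Mt2 had 8 and 7 UMIs in control and 1 and 0 in NASH, and did not pass (adjusted p = 0.0619). All 8 UMIs of control 1 lay in the hepatocyte-rich member. Against C1q-high cells, below, Mt2 had an adjusted p of 0.127 without the hepatocyte-rich member. The proliferation gene Stmn1 had 0 UMIs in control and 24 and 54 in NASH, at least 3.78-fold higher against a floor of 3 UMIs over the control members (adjusted p = 0.269). Mki67 or Top2a was detected in 0 of 21 control members and in 1 of 40 and 2 of 44 NASH members, where a count of 0 allows up to 60% and 18.8% of members with a UMI in the control libraries.

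The next comparison asked whether a diet difference in the members differed from that in T comparators, with the library as a block. It called 22 of 2468 genes (0.891%), 16 of them with a larger NASH-over-control change in the members (0.648%) and 6 with a smaller one (0.243%). At an unadjusted p under 0.05 it had 9.93% of genes, 6.85% with a larger and 3.08% with a smaller change. Of the ILC1 list, 2 of 16 tested genes were called (Cd7 and Xcl1), 5 were larger at the unadjusted p, and the median was 1.32. NK receptors had none of 17 called and 5 larger at the unadjusted p. Cd7, a surface protein of NK, ILC1 and T cells, stood at 8.83 and 11.7 UMIs per 10000 in control members and 14.0 and 15.1 in NASH members, against 2.49 and 6.42 and then 1.54 and 1.54 in T comparators. Its interaction was 2.12 on the log2 scale (SE 0.37, adjusted p = 6.71e-06). Xcl1 stood at 0.70, 2.06, 0.78 and 2.12 in T comparators and had an interaction of 2.26 (SE 0.48, adjusted p = 0.000794). Cd7 levels were thus higher in NASH members and lower in NASH T comparators, while the Xcl1 levels of T comparators overlapped between the diets. In the members alone Cd7 did not pass between the diets, as reported or in 15 alternatives (log2 of 0.25 to 1.13). DESeq2 called neither interaction. Without NASH 1 or NASH 2 the Cd7 interaction had an adjusted p of 0.0858 or 0.126. That of Xcl1 had 0.101 without control 2, 0.508 without NASH 1, 0.0524 with Ncr1-positive members without Cd3 UMIs and 0.210 in marker-checked members.

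**Figure D5:**
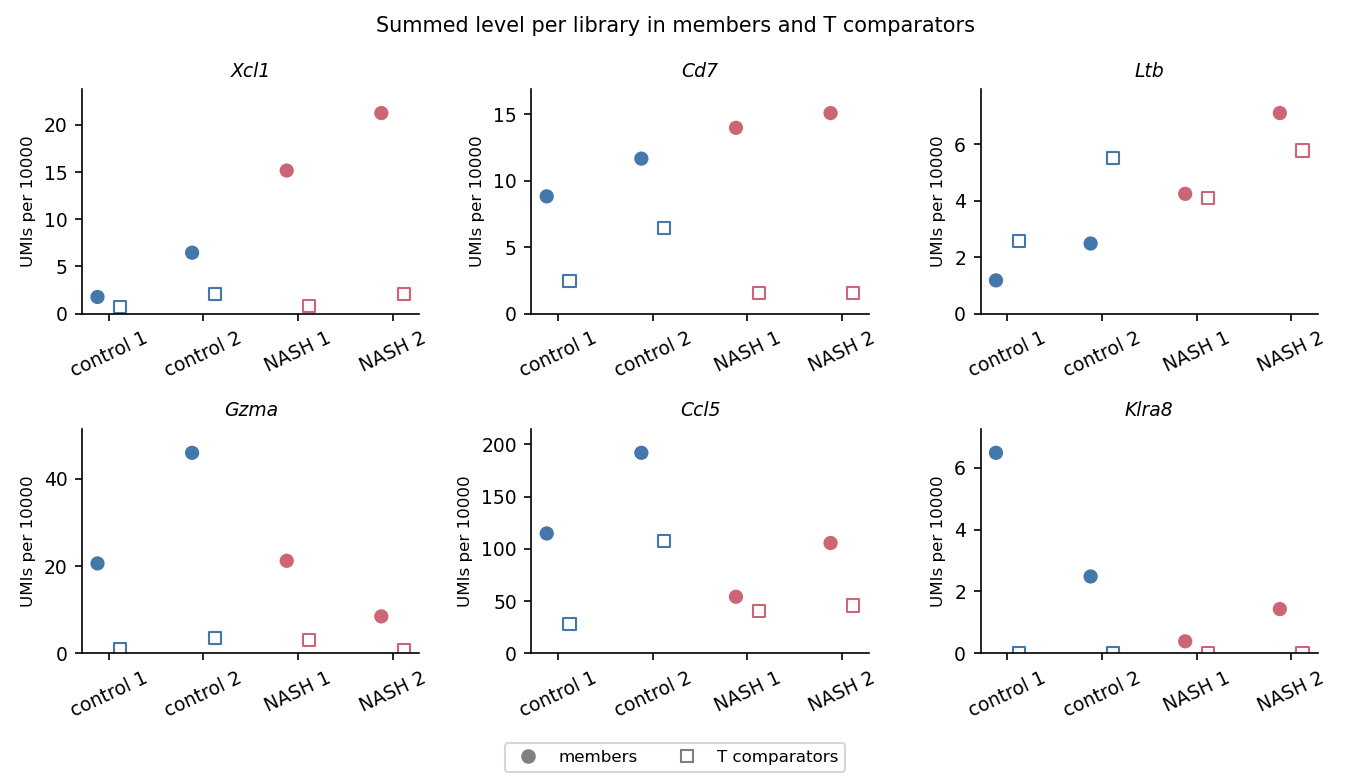
Points give the summed UMIs of a gene per 10000 UMIs in the members (filled circles) and T comparators (open squares) of each library, with an axis from 0 for each gene. Xcl1 and Cd7 separate the classes most in NASH 1 and NASH 2, while Klra8 is at 0 in every T comparator group.

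Hist1h2ap, a histone gene of dividing cells, had 0 and 1 UMIs in control members and 44 and 133 in NASH members, with an interaction of 6.35 (SE 0.68, adjusted p = 2.35e-17). T comparators had 260, 80, 82 and 184 UMIs of it. The 3 members with Mki67 or Top2a were all in NASH, and their part in these values was not tested. Tuba1b (3.68), Stmn1 (8.09, with 0 UMIs in control members, so the fitted value is no bound), the chromatin protein gene Hmgb2 (1.66) and S100a4 (1.82) also passed. Of the cell cycle list, 2 of 11 tested genes were called, Stmn1 and Hmgb2. Mgst1 (−6.22, with 54, 2, 12 and 1 UMIs in the members), Trf (−3.54) and the iron storage gene Ftl1 (−1.02) had smaller changes in the members, and 10 genes were called in all without the hepatocyte-rich member. Cxcl13 (−10.3) and Clu (−8.60) were high in NASH 2 T comparators, with 461 and 107 UMIs there against 0 in NASH 2 members. In marker-checked members 13 genes were called, and DESeq2 called 1.

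Cells rich in C1q are mostly macrophages and include the 72 cells that only the C1q limit kept out of the members. The part of those 72 cells was not tested. Against C1q-high cells the interaction called 49 of 9347 genes (0.524%), 26 with a larger (0.278%) and 23 with a smaller (0.246%) change in the members. At an unadjusted p under 0.05 it had 6.99%, 5.27% with a larger and 1.71% with a smaller change. The median interaction of all genes was 0.75, so values are read relative to it. Ccl5 (−3.04, SE 0.48, adjusted p = 1.67e-06) and Nkg7 (−2.13, SE 0.52, adjusted p = 0.0148) stood far lower in the C1q-high cells, at 0.35, 0.66, 2.62 and 2.47 UMIs per 10000 for Ccl5, where both were higher in NASH. Lgals1 (−3.06), Cd9 (−4.28) and Lat2 (−3.78) also had smaller changes in the members. For Cd9 the members' own log2 fold change was 0.07 (SE 0.48). The immediate-early genes Fos (12.7, with 0 UMIs in control members) and Junb (2.74) and the adhesion receptor Cd44 (3.54) had lower levels in NASH than in control C1q-high cells, and higher levels in NASH members. The immediate-early and stress list had 5 of 28 tested genes called, all with larger changes in the members, 16 larger at the unadjusted p, and a median of 2.71. Between the diets in the members alone, 9 genes of this list could be tested and 0 were called. There 2 were higher at an unadjusted p under 0.05, and the median log2 fold change was 0.35. Mt1 (−3.14) and Mt2 (−6.31) were lower in NASH members and not in C1q-high cells; without the hepatocyte-rich member Mt1 had −1.84 (adjusted p = 0.512). Ccl24 (13.1, with 0 UMIs in control members), Cd74 (2.95) and H2-Ab1 (2.502) also passed, and with the marker check, which removes NASH members on these genes and so gives no test of them, Cd74 was at −0.29 and H2-Ab1 at −0.99. DESeq2 called 13 genes, and leaving out control 1, NASH 1 or NASH 2 left 0.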

How the data were processed

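The deposited values are raw UMI counts per gene and barcode for 4 libraries; the submitters' processing notes name Cell Ranger, Seurat and the build mm10, without versions. Deposited counts covered 27998 genes. Cells were filtered as the report states, and member, T comparator and C1q-high counts were summed per library. Sums were compared with edgeR 4.0.16 (TMM factors, filterByExpr, robust quasi-likelihood test, Benjamini-Hochberg adjustment over all genes tested, threshold 0.05) in R 4.3.3, with diet as the only term, or with library as a block and a class-by-diet interaction. DESeq2 1.42.0 was an alternative. Single shares were compared by exact two-sided permutation tests over libraries (scipy 1.17.1). Doublets were scored per library as an alternative and left in otherwise.

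The members and the 32 gene lists were chosen with earlier results of these data known. Named genes were the called genes with the largest changes, the 4 genes of each list with the smallest p, the rule's marker and gate genes and, for interactions, the 8 smallest adjusted p. Intervals and floors (3 counts) cover counting error only. On simulated data, drawn with the same spread for every gene, rates were taken over the changed genes that passed the count filter. With a log2 interaction of 3, edgeR recovered 33.0% against T comparators (31 of 94, with 101 changed in all). Against C1q-high cells it recovered 9.50% (9 of 95, with 102 changed in all), and neither rate need hold for the real sums. Alternatives were other normalization, filters, cell limits, thinning, member rules, a replicate block and each library left out.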

Additional observations from a re-analysis of the deposited data

Results flagged for a closer look

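The edgeR interaction test called 22 of 2468 genes (0.891%) whose diet difference, as log2 NASH over control, differed between members and T comparators. The 12 of them named above are listed here, with the limits given there. The values, members minus T comparators, were 6.35 for Hist1h2ap, 8.09 for Stmn1, 3.68 for Tuba1b, 1.66 for Hmgb2, 2.12 for Cd7, 2.26 for Xcl1 and 1.82 for S100a4. They were −6.22 for Mgst1, −10.3 for Cxcl13, −8.60 for Clu, −3.54 for Trf and −1.02 for Ftl1.

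Against C1q-high cells 49 of 9347 genes (0.524%) were called in the same way. The 13 of them named above are listed, again with the limits given there. The values were 13.1 for Ccl24, 12.7 for Fos, 3.54 for Cd44, 2.95 for Cd74, 2.74 for Junb and 2.502 for H2-Ab1. They were −3.04 for Ccl5, −3.06 for Lgals1, −4.28 for Cd9, −3.14 for Mt1, −3.78 for Lat2, −2.13 for Nkg7 and −6.31 for Mt2. Fitted values of genes with no UMI in the control members (Stmn1, Ccl24 and Fos) depend on the prior count and are no bounds.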

How the results depend on the processing

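The count of genes called between the diets in members, 0 as reported, was 11 with DESeq2, 7 with stricter cells, 10 with Ncr1-positive members without Cd3 UMIs, 10 without the hepatocyte-rich member, 11 without MHC class II-rich members, 25 with marker-checked members, 8 with upper-quartile factors and 4 after thinning; it was 0 with no filter on low counts and with the highest doublet scores removed, and 0 to 156 with 1 library left out, the most without control 2. With the replicate number as a block it was 19. The differences of same-numbered libraries did not correlate (r = −0.0156 over 1525 genes, 2 pairs). The labels do not say whether these libraries share a day or batch. With 2 pairs and few control members, this correlation cannot show whether they do. In marker-checked members (25) DESeq2 called 1, no filter 51 and the block 32, and leaving out a library 10 to 52. Against T comparators (22) the count was 1 with DESeq2, 36 with no filter, 7 with the Ncr1-positive members, 10 without the hepatocyte-rich member, 13 with marker-checked members and 7 to 147 with a library left out. Against C1q-high cells (49) it was 13, 28, 19, 23 and 15 in that order, and 0 to 25. A lone library was assumed to vary like the others. The share of ILC1-gated among gated members, NASH minus control, was 3.33 percentage points as reported, −13.3 without NASH 1 and 20.0 without NASH 2; thinning to 500 UMIs gave no value. The log2 ratio of member shares stayed positive in the 13 alternatives run, from 0.45 to 2.68, the Gzma share difference lay between −71.9 and −33.2 points and that of Xcl1 between 40.9 and 64.7. Against C1q-high cells, Cd74 (−0.29) and H2-Ab1 (−0.99) reversed with marker-checked members, which follows from that setting's construction, since it removes members rich in these genes, all of them in NASH. For the other settings the cause was not tested. The 57234 UMIs of all control members limit every diet comparison.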
